A study of Mus musculus with 2 samples.

Results

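Collagens form the fibrils and sheets of the extracellular matrix. Each chain carries a triple-helical region in which the triplet Gly-X-Y is repeated in tandem, with proline often at X or Y, and 3 chains wind around each other there. Fibrillar collagens such as type I, II and V build fibrils, whereas type IV chains build the sheet of the basement membrane, on which the cells of the pancreatic islet rest where they face the capillaries. Rfx6 is a winged-helix transcription factor of the RFX family, whose members bind a DNA element called the X-box, and it is needed for the formation and function of islet endocrine cells.

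Peaks of Rfx6 at the collagen genes were examined in Min6B1 cells, an insulin-secreting line derived from mouse β cells. The cells received a plasmid (pCMV-Tag2A-3HA-Rfx6) that drives Rfx6 with an HA tag from a viral promoter, and 2 days later the chromatin bound by the tagged protein was isolated with the 12CA5 antibody against HA for sequencing (ChIP-seq). A control library made with this antibody is labelled as Min6b1 cells, although its growth text repeats the transfection. There was 1 library per condition, so no value has a replicate error and no difference between the conditions could be tested. The tagged protein was expressed in addition to the Rfx6 of the cell, so the list holds peaks of an overexpressed factor. The library of 3HA-Rfx6 had 49443917 reads, of which 33949757 were kept after removing reads at the same position, and the control had 16911298, of which 3567375 were kept. The kept reads of 3HA-Rfx6 were thus 9.52 times as many. The list of the authors holds 23308 peaks with a median of 73 reads and a median fold enrichment of 8.54, where the fold compares a peak with the background that the peak caller estimated from the control and the surroundings.

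Collagen genes were taken as the protein-coding autosomal genes of the GENCODE M1 annotation (mm9) with a symbol made of Col, a number, a and a number. There were 41 of them among 21410 autosomal protein-coding genes. A peak belonged to a gene when its summit, the position of highest signal, lay in the gene or within 20 kb of it. The family was chosen from measured values, namely the many summits in the coding exons of Col4a2 and the reads of those peaks, so the values of Col4a2 are given as a description. The farthest summit that counted lay 18.4 kb from Col1a1 (86 reads), and the nearest that did not lay 20.4 kb from Col6a4 (63 reads).

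At least 1 peak was detected at 34 of the 41 collagen genes (82.9%, 95% Wilson interval 68.7 to 91.5%), beside 57.0% of all autosomal protein-coding genes. A summit lay in a coding exon of 12 collagen genes (29.3%, 17.6 to 44.5%), Col4a2 among them, whereas 7.03% of all genes had one. Neither share over all genes is matched for gene length or exon number. For the members with 1 coding summit, 7 (Col8a1) to 24 (Col17a1) of the 100 genes most similar in length and exon number had at least 1. A summit within 1 kb of a transcript start was found at 10 collagen genes (24.4%, 13.8 to 39.3%), which is near the 23.4% of all genes. Inside the genes, 25 of 119 summits lay in coding exons (21.0%, 14.7 to 29.2%), beside 11.5% over all genes, and without Col4a2 the share was 16 of 102 (15.7%, 9.89 to 24.0%). Coding exons made up 4.1% of the length of the collagen genes and 3.55% of that of all genes. These intervals cover counting error only, and peaks of 1 gene are not independent of each other.

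In all, 154 peaks were assigned to collagen genes, and 3 of them belonged to a pair of neighbouring collagen genes, which gives 157 pairs of a peak and a gene. Of these pairs, 86 were intronic in 26 genes, 25 were in coding exons of 12 genes and 3 were in untranslated exons of Col4a2 and Col5a1. A further 8 lay within 1 kb of a start and outside exons, 19 lay upstream and 16 lay downstream. Of the 38 pairs with the summit outside the collagen gene in flanking DNA, 18 lay in another protein-coding gene or within 1 kb of its start, and in 15 of these that gene was no collagen. The gene to which such a peak belongs cannot be told from its position.

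**Figure D1:**
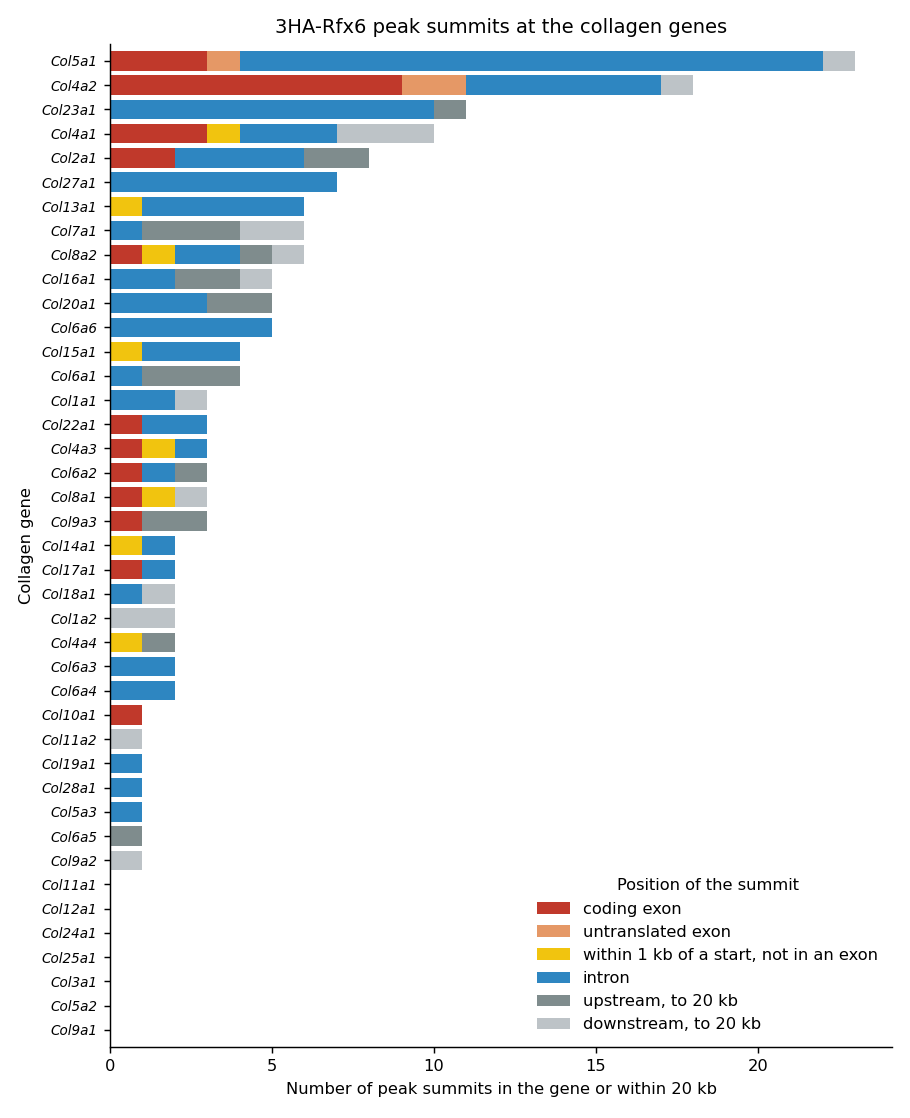
Number of peak summits (horizontal axis) in or within 20 kb of each of the 41 collagen genes (rows), with the colour giving the position of the summit. Col5a1 has 23 summits, most of them intronic, Col4a2 has 18, of which 9 are in coding exons, and 7 genes have none.

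The family differed greatly among its members. Col5a1, a chain of type V fibrils, had 23 summits, and Col4a2, a chain of the basement membrane, had 18. They were followed by Col23a1 with 11, Col4a1 with 10, Col2a1 with 8, Col27a1 with 7, and Col7a1, Col8a2 and Col13a1 with 6 each. Col6a6, Col16a1 and Col20a1 had 5 each. Col6a1 and Col15a1 had 4, and Col1a1, Col4a3, Col6a2, Col8a1, Col9a3 and Col22a1 had 3. Col1a2, Col4a4, Col6a3, Col6a4, Col14a1, Col17a1 and Col18a1 had 2, and Col5a3, Col6a5, Col9a2, Col10a1, Col11a2, Col19a1 and Col28a1 had 1. No summit was listed for Col3a1, Col5a2, Col9a1, Col11a1, Col12a1, Col24a1 and Col25a1. The genes without a summit were 38.2 to 419 kb long, so they were not the short members of the family. Col3a1, which encodes the chain of type III fibrils, and its neighbour Col5a2 were both among them.

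Among the structural groups, the 4 autosomal basement membrane genes (Col4a1 to Col4a4) had 30 peaks, with 26 summits inside the genes and 13 of these in coding exons. The 11 genes of fibrillar chains had 45 peaks at 7 genes, with 38 summits inside and 5 in coding exons. The 3 short-chain genes, Col8a1, Col8a2 and Col10a1, whose products form hexagonal networks, had 10 peaks and each had 1 summit in a coding exon. The 9 fibril-associated (FACIT) genes had 20 peaks with 2 summits in coding exons, and the 4 transmembrane genes had 19 peaks with 1. The 7 genes of type VI and related chains had 18 peaks with 1 coding summit. Col7a1, the chain of the anchoring fibrils of the skin, had 6 peaks, and the multiplexins Col15a1 and Col18a1 had 6 together, none with a coding summit. Basement membrane genes thus held 13 of the 25 coding summits, 9 of them in Col4a2.

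The sequences under the strongest coding summits are shown because each of them lies in the Gly-X-Y repeat. Windows of 81 bases centred on the summit are given 5′ to 3′ on the strand of the gene (NCBIM37/mm9), and capitals mark the codons of glycine in the reading frame of the gene.
Col8a1 exon 4 (chr16:57628188-57628268, minus strand): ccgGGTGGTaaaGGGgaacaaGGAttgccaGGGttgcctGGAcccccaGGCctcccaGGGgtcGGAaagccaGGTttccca
Col4a2 exon 34 (chr8:11438004-11438084, plus strand): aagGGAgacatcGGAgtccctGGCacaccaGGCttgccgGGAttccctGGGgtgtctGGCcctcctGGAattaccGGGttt
Col4a2 exon 19 (chr8:11415385-11415465, plus strand): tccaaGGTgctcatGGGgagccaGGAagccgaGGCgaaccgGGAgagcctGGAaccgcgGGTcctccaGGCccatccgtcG
Col4a2 exon 25 (chr8:11425376-11425456, plus strand): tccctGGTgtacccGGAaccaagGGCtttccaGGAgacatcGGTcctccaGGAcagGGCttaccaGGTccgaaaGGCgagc
Col4a2 exon 28 (chr8:11427545-11427625, plus strand): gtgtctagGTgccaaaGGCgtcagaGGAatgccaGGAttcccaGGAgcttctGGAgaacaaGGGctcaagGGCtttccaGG
Col10a1 exon 3 (chr10:34115049-34115129, plus strand): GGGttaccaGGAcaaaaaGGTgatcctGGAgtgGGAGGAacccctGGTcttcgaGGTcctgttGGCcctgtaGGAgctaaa
Col2a1 exon 25 (chr15:97817955-97818035, minus strand): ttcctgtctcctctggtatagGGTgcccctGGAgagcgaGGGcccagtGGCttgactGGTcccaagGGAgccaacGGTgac
Col8a2 exon 4 (chr4:125987971-125988051, plus strand): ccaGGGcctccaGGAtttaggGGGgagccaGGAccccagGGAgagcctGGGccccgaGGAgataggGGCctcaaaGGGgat

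In these windows a glycine codon recurs every 9 bases, apart from short breaks in the repeat and the intron bases before the exon in Col2a1 and Col4a2 exon 28. No X-box of the strict form defined below lies within 100 bp of any of these summits.

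Col4a2 lies on the plus strand at chr8:11312805-11449287, has 48 exons and is 136 kb long. Its 9 coding summits lay from 11415425 to 11438044, a span of 22.6 kb of which 8.83% is coding. All 9 summits in that span were in coding exons, while it holds 16 coding exons. From the start of the gene onwards, the peaks in exons 19, 22, 24, 25, 28, 29, 30, 31 and 34 had 547, 65, 80, 375, 354, 60, 90, 152 and 600 reads. Their fold enrichments in the same order were 36.0, 10.6, 7.63, 38.0, 38.1, 5.09, 11.4, 12.6 and 39.7. The 4 strong peaks thus stood apart from the other 5, which had 60 to 152 reads. By reads, the peaks of exons 34 and 19 ranked 47 and 66 of all peaks in the list. The false discovery rates given by the authors were 25.29% for exons 19 and 34, 10.07% for exon 25 and 10.4% for exon 28. Those of the other 5 coding peaks were lower, at 1.8 to 4.07%. The remaining summits inside Col4a2 were weaker than the 4 strong peaks. There were 4 in intron 4 (40, 54, 135 and 67 reads), 1 each in intron 16 (124 reads) and intron 46 (164 reads), 1 in the last exon past the coding sequence (136 reads) and 1 in exon 1. A downstream peak with 182 reads and a fold enrichment of 30.6 lay inside Rab20, a neighbouring gene for a small GTPase.

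Col4a1 encodes the chain that assembles with the product of Col4a2 and lies head to head with it at chr8:11198423-11312826, with an overlap of 22 bp at their starts. It had 3 coding summits, in exons 21, 30 and 48, with 152, 103 and 100 reads and fold enrichments of 16.2, 9.65 and 12.7. The intron summits had 125, 44 and 58 reads and lay 4, 111 and 22 bp from the nearest coding exon. A further 3 peaks lay downstream of the gene with 202, 249 and 80 reads. The 2 genes shared 1 peak at their starts, with its summit at chr8:11312998, 172 bp upstream of the start of Col4a1 and 193 bp after that of Col4a2. It had 180 reads and a fold enrichment of 8.24, and 75.5% of the 200 bp around the summit was G or C. Neither a strict X-box nor the second X-box arm alone (AGCAAC or a variant, defined below) was found there, and 4 peaks within Col4a2 had more reads than the one at the shared start.

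**Figure D2:**
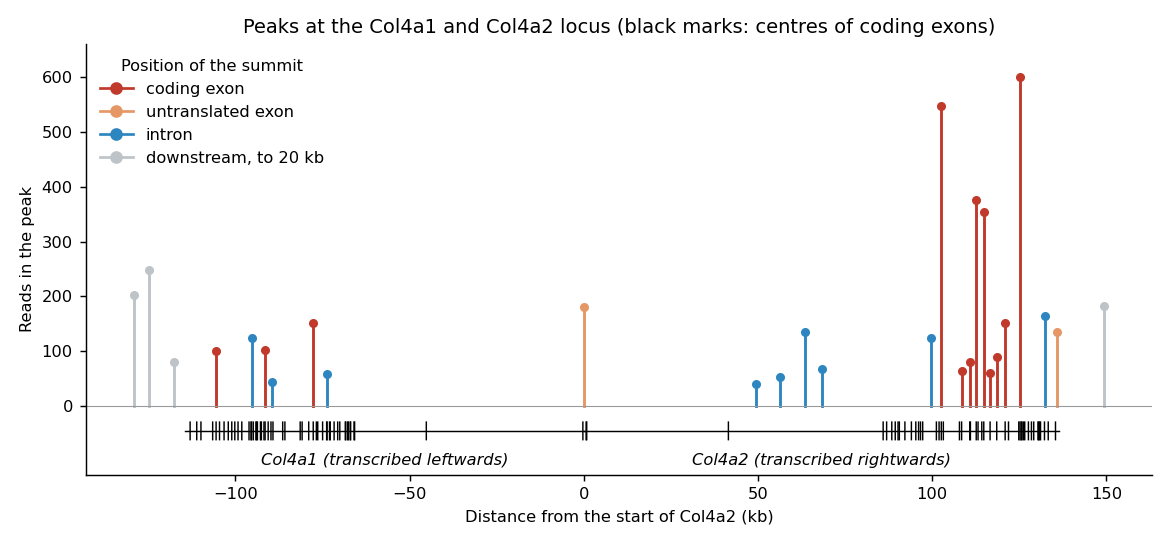
Reads in each peak (vertical axis) against the distance of its summit from the start of Col4a2 in kb, with the colour giving the position of the summit and black marks below giving the centres of coding exons. The 9 coding summits of Col4a2 cluster in 22.6 kb, and the 4 tallest have 354 to 600 reads against 180 at the shared start.

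Over all autosomal genes, Col4a2 ranked 2 by the number of summits in coding exons, the value on which the family was chosen, so this rank is a description. Rfx6 ranked first with 13 of its 14 inside summits in coding exons, and its coding sequence is the one that the cells received on the plasmid. Hspg2, which encodes the basement membrane proteoglycan perlecan, followed with 5, and Col4a1 and Col5a1 were among the 20 genes with 3 or more. Whether reads from the plasmid or other DNA without introns contributed to the coding summits of collagen genes was not tested.

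The other pair of basement membrane genes, Col4a3 and Col4a4, also starts head to head, with 71 bp between the genes. They shared a peak with its summit at chr1:82584100, 604 bp after the start of Col4a3 and 676 bp upstream of that of Col4a4, with 225 reads and a fold enrichment of 25.4. One X-box arm lies near this summit and is shown in capitals, in 81 bases on the strand of Col4a4.
Col4a3 and Col4a4 start (chr1:82584060-82584140, minus strand): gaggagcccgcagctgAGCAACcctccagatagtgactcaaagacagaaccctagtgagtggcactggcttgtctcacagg
A peak in intron 1 of Col4a3 with 54 reads was shared as well, and exon 29 of Col4a3 held a coding summit with 175 reads and a fold enrichment of 6.74. No summit lay inside Col4a4.

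Col5a1 (chr2:27741945-27895034, 66 exons) held 22 summits inside the gene, 18 of them in introns. The intron peak with most reads lay in intron 4, with 390 reads and a fold enrichment of 43.1, the highest fold of all peaks at collagen genes and rank 174 in the list. The other peaks in intron 4 had 47 to 95 reads. A peak in intron 64 had 283 reads and 1 in intron 2 had 177, and the remaining intron peaks had 45 to 170 reads. The coding summits in exons 2, 12 and 58 had 99, 41 and 156 reads, beside a median of 73 over all peaks. The peak in exon 1 had 88 reads, 228 bp after the start.

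Among the other fibrillar genes, Col2a1, the chain of cartilage fibrils, had 6 summits inside its 29.1 kb. Exon 25 held a peak with 367 reads and a fold enrichment of 27.6, and exon 46 held one with 62 reads and a fold of 4.71. The 4 intron summits had 187, 238, 79 and 85 reads, and those of introns 40 and 31 lay 11 bp from a coding exon. Col1a1, the main chain of type I fibrils, had no coding summit, but its summits in introns 21 and 31 lay 14 and 1 bp from a coding exon, with 427 and 212 reads. The peak in intron 21 was broad and had a fold enrichment of 5.39, so it ranked 172 by reads and 20412 by fold. Col27a1 had 7 intron summits with 42 to 216 reads. Col1a2 had 2 downstream peaks with 74 and 109 reads, Col5a3 an intron peak with 57 and Col11a2 a downstream peak with 39.

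The peak with most reads at any collagen gene lay in exon 4 of Col8a1, with 828 reads and rank 16 by reads. It had a fold enrichment of 23.1 and a false discovery rate of 25.29%. Exon 4 of Col8a2, the partner gene of Col8a1, held a peak with 285 reads but a fold of only 5.21. Col8a2 also had intron peaks with 40 and 104 reads. Exon 3 of Col10a1, a marker of hypertrophic cartilage, held a peak with 426 reads and a fold enrichment of 23.8, and this gene lies within Nt5dc1. Each of the 3 short-chain genes thus had 1 summit in a coding exon.

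Coding summits were also found at 4 genes of other groups. Exon 13 of Col6a2 held a peak with 164 reads (fold 14.5), exon 29 of Col17a1 one with 92 (14.1), exon 30 of Col9a3 one with 68 (9.89) and exon 56 of Col22a1 one with 65 (12.5). Col17a1, a collagen of hemidesmosomes, also had an intron 37 peak with 223 reads and a fold enrichment of 41.7, whose summit lay 85 bp from a coding exon. Among genes without a coding summit, Col13a1 had an intron 23 peak with 335 reads and a fold of 19.8. The 10 intron summits of Col23a1 all lay in intron 2 and had 42 to 210 reads. Col7a1 had 3 upstream peaks with 44, 41 and 193 reads, an intron peak with 44 and downstream peaks with 32 and 50. The downstream peak of Col9a2, with 196 reads and a fold of 37.2, lay inside Zmpste24.

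**Figure D3:**
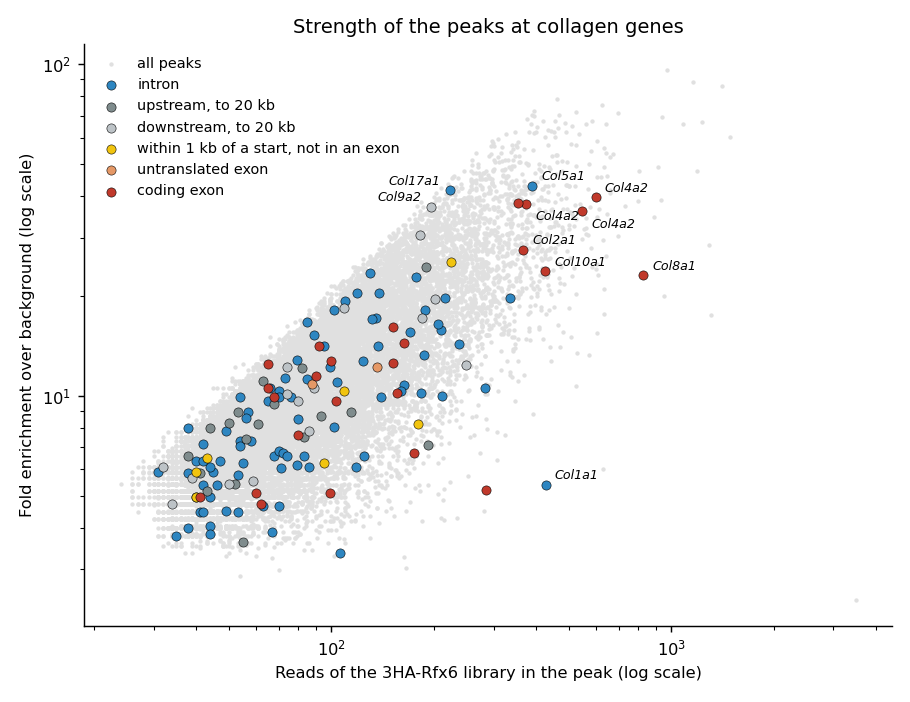
Reads in each peak against its fold enrichment (both axes on a log scale) for all 23308 peaks (grey) and for the 154 peaks at collagen genes, coloured by the position of the summit. Of the 10 collagen peaks with most reads, 7 lie in coding exons, and the Col1a1 peak has 427 reads at a fold of 5.39. Among these 7 are the Col4a2 peaks with 600, 547, 375 and 354 reads, which were known when the family was chosen.

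The median number of reads was higher in coding exons than elsewhere in the family. The 25 peaks in coding exons had 41 to 828 reads with a median of 152, whereas the other 129 peaks at collagen genes had 31 to 427 with a median of 74. All peaks in coding exons of any protein-coding gene had a median of 83. Median fold enrichments were 12.5 for the coding collagen peaks, 8.31 for the other collagen peaks and 8.53 for coding peaks of any gene. These are descriptions of 1 library, and the reads of Col4a2 were known when the family was chosen. Without Col4a2 the 16 coding collagen peaks had a median of 128 reads and a median fold of 11.3. Reads are counted over the whole peak. The coding collagen peaks had a median length of 1414 bp, and 1690 bp without Col4a2, against 1202 bp for the other collagen peaks. The part of peak length in the difference of reads was not tested.

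Summits within 1 kb of a start were found at 10 genes. Besides the shared peaks of Col4a1 with Col4a2 (180 reads) and of Col4a3 with Col4a4 (225 reads), Col13a1 had 109 reads, Col8a1 had 95 and Col5a1 had 88. Col8a2 had 43, and Col14a1 and Col15a1 had 40 each. Both shared peaks thus had more reads than the median of the coding collagen peaks, and the other start peaks had fewer.

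Long genes have more room for summits, so each collagen gene was set beside the 100 other autosomal protein-coding genes nearest to it in length and number of exons. These neighbours are a description and overlap between members. Collagen genes held 119 summits inside, against 65.2 for the mean of their neighbours summed over the members, a ratio of 1.82. Without Col4a2, on which the family was chosen, there were 102 against 63.6, a ratio of 1.6 (exact Poisson interval 1.31 to 1.95, counting error only). Without Col5a1 but with Col4a2 still counted, 97 summits gave a ratio of 1.53, and no ratio without both genes is given. In coding exons the collagen genes held 25 against 7.97, a ratio of 3.14 that includes the 9 summits of Col4a2. The coding length of the collagen genes was nevertheless shorter, at 190365 bp against 250927 bp for the neighbours. Without Col4a2 there were 16 against 7.83, a ratio of 2.04 (1.17 to 3.32). The number of summits inside was above the median of the neighbours for 23 members, Col4a2 among them, at it for 8 and below it for 10. These medians were at most 2, so a gene such as Col10a1 was above with 1 summit against 0. How many other genes lie above the median of their own neighbours was not counted. Col5a1 with 22 and Col2a1 with 6 exceeded the highest of their neighbours, at 17 and 5. In coding exons, Col4a2 with 9, Col4a1 with 3 and Col5a1 with 3 exceeded the highest of theirs, which was 2 in each case. The excess was thus uneven over the family, and it was carried by a few genes.

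**Figure D4:**
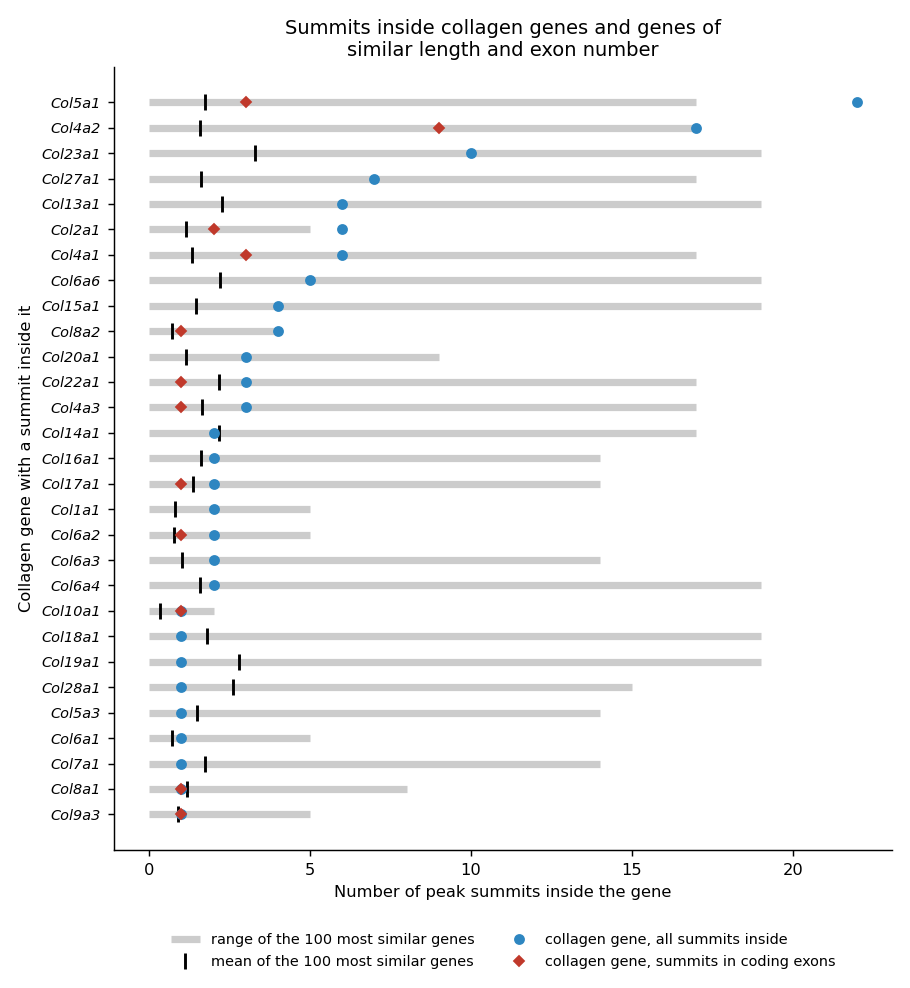
Summits inside each of the 29 collagen genes that had one (blue circles) and those in its coding exons (red diamonds), with the range (grey bars) and mean (black marks) of summits inside the 100 genes of most similar length and exon number. Col5a1 with 22 and Col2a1 with 6 lie beyond the range of their neighbours, and Col4a2 with 17 lies at its end.

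The codons of the longest coding transcript were then split into those within runs of at least 5 Gly-X-Y triplets and the others, a split that was chosen after the sequences under the summits had been seen. Of the 25 coding summits, 23 lay in such runs (92.0%, Wilson interval 75.0 to 97.8%), including all 9 of Col4a2. The 2 others lay in exon 48 of Col4a1 and exon 2 of Col5a1. Runs made up 48.1% of the codons of all 41 genes and 69.0% of those of the genes with a coding summit when each gene counted by its number of coding summits. Per Mb of sequence there were 256 summits in the runs (exact Poisson interval 162 to 384), 20.7 in the other coding sequence of collagen genes (2.5 to 74.6) and 21.1 in their introns and untranslated exons. Without Col4a2 the densities were 163 (89.1 to 273) and 20.9 (2.53 to 75.6). Leaving out that gene does not undo the choice of the split after the sequences had been seen, so these densities are a description. Over all autosomal genes the density was 47.8 in coding sequence and 13.6 in the rest of the genes.

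**Figure D5:**
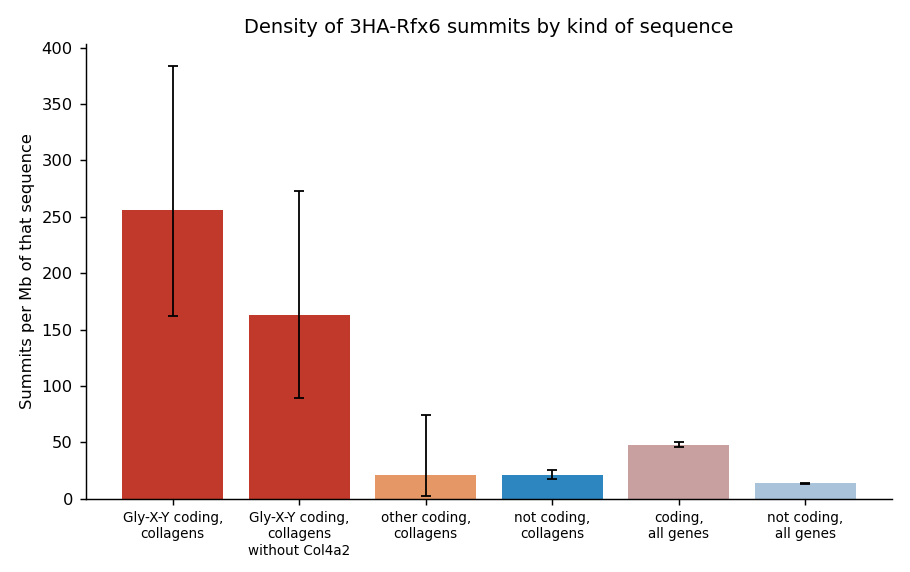
Peak summits per Mb of sequence for parts of the collagen genes (first 4 bars, with the second without Col4a2) and for all autosomal protein-coding genes (last 2 bars), with exact 95% Poisson intervals as error bars. Gly-X-Y coding sequence has 256 per Mb, and 163 without Col4a2, against 20.7 in the other coding sequence of collagens.

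Base composition moved with this split. The Gly-X-Y runs had 63.1% G and C and 24.5 CpG dinucleotides per kb, and the other coding sequence of collagens had 53.0% and 29.1. Around the coding summits of collagen genes, 58.5% of the 200 bp was G or C as a median, below the 63.0% around coding summits of all genes. The pentamer CCNGG, which a proline codon followed by a glycine codon spells, occurred a median of 8 times in the 200 bp around coding summits of collagens, 3 times around those of all genes and 2 times around all summits. The part of base composition or of repeated sequence in these densities was not tested.

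Some of the intron summits lay at the edge of exons. Of the 86 intron summits, 15 (17.4%) lay within 100 bp of a coding exon, while 7.9% of the intron bases of the family lie within 100 bp of an exon. A further 45 lay over 1 kb away, and the median distance was 1150 bp. When a peak was counted as coding if any of its bases touched a coding exon, the number rose from 25 to 61, and 26 of the coding exons of Col4a2, 15 of Col4a1 and 14 of Col5a1 were touched. The summit position is uncertain at the scale of the fragments, which were estimated at 234 bp.

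The X-box was searched on both strands in the 200 bp around each summit as the arm GTNACC or GTNGCC, followed after 0 to 3 bases by the arm AGCAAC, with A or G at its first base and C or T at the third. It was present in 10 of the 154 peaks at collagen genes (6.49%, 3.57 to 11.5%), beside 6.42% of all peaks and 0.253% of windows 1 kb to the right of all summits. It was absent from the 25 coding peaks, which allows a share of up to 13.3% by the Wilson interval, and 1.93% of coding peaks of any gene had it. The 10 peaks with an X-box had 38 to 138 reads with a median of 51, whereas those without had a median of 84. Over all peaks the order was the opposite, with medians of 78 and 72. None of the 10 collagen peaks with most reads held an X-box of this form.

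The X-boxes of these 10 peaks are shown because they are the places at collagen genes where the strict form of the element was found. They are given on the strand of the gene with 12 bases on each side, and capitals mark the X-boxes.
Col6a4 intron 24 (chr9:105928570-105928680, minus strand): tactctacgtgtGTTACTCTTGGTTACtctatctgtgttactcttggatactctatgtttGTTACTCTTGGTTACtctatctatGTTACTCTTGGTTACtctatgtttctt
Col22a1 intron 46 (chr15:71684127-71684235, minus strand): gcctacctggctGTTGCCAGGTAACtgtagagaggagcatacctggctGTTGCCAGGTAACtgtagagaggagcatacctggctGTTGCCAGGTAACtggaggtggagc
Col14a1 intron 22 (chr15:55258270-55258342, plus strand): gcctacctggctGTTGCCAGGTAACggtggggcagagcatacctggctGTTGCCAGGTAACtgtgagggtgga
Col23a1 intron 2 (chr11:51273160-51273196, plus strand): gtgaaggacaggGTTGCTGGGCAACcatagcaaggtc
Col27a1 intron 28 (chr4:62959744-62959781, plus strand): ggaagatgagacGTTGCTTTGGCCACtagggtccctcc
Col8a2 intron 1, near the start (chr4:125964609-125964645, plus strand): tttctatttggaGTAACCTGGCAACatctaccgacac
Col7a1 upstream (chr9:108845073-108845109, plus strand): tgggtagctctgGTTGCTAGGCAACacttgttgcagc
Col1a2 downstream (chr6:4500337-4500373, plus strand): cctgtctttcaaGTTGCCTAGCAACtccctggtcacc
Col11a2 downstream (chr17:34215444-34215481, plus strand): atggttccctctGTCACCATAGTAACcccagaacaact
Col16a1 downstream (chr4:129784456-129784493, plus strand): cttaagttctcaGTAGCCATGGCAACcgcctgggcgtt

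The X-boxes of Col22a1, Col14a1 and Col6a4 stand in short tandem repeats. In intron 46 of Col22a1 the same element occurs 3 times at a spacing of 36 bp, under a peak with 102 reads and a fold enrichment of 18.1. Intron 22 of Col14a1, on the same chromosome, holds 2 copies of that element at the same spacing, under a peak with 38 reads and a fold of 5.84. In intron 24 of Col6a4 another element occurs 3 times at spacings of 24 and 48 bp, and its peak had 138 reads and a fold of 20.5. The peaks with a single X-box had 39 to 79 reads, so the 2 peaks with 3 copies had the most reads of these 10. The upstream site of Col7a1 lies inside Uqcrc1 and that downstream of Col16a1 inside Pef1.

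A relaxed form of the X-box fixes mainly purines and pyrimidines in place of single bases. It keeps AC at its end and needs at least 1 base between the arms. The peaks of Col6a4 and Col16a1 with a strict X-box lacked it. The relaxed form was present in 45.5% of collagen peaks and 48.0% of the coding ones, against 45.9% of all peaks. In windows 1 kb to the right it was present in 19.5%, 24.0% and 22.8%. The second arm alone, AGCAAC with the same variants, on either strand, was present in 9 of the 25 coding peaks (36.0%, 20.2 to 55.5%), in 60.5% of the other collagen peaks and in 60.9% of all peaks. Each strict X-box holds such an arm. The share was 45.6% in coding peaks of any gene, which lies within the interval of the coding collagen peaks.

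Genes that act on collagen were counted in the same way. Of 15 enzymes and chaperones of collagen synthesis, 13 had a summit in the gene or within 20 kb, and the highest peak was downstream of P4ha1, a prolyl hydroxylase subunit, with 277 reads. Of 13 genes of procollagen processing and crosslinking, 11 had one. Of the 44 summits inside them, 8 were coding, in 5 genes, with 3 of the 8 in the procollagen protease gene Adamts14. The highest peak of that list lay upstream of Bmp1, which removes the propeptide of fibrillar chains, with 521 reads and a fold enrichment of 43.1. Of 16 genes for partners of collagen in the basement membrane, 14 had a summit, with a highest peak of 607 reads in an intron of Hspg2. Of the 37 summits inside them, 9 were coding, in 4 genes, with 5 of the 9 in Hspg2. Of 9 collagen receptors, 6 had a summit and none a coding one, the highest being 143 reads at Itga11. Of 7 autosomal fibril-associated proteoglycans, 2 had a summit, the highest being 196 reads at Prelp. The shares of genes with a summit stand beside the 57.0% of all genes. For coding summits, 7.03% of all genes had one, and 11.5% of the summits inside all genes were coding. Neither is matched for gene length or exon number, and the lists are too short for more than the counts.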

How the data were processed

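Chromatin of Min6B1 cells with 3HA-Rfx6 and of the control was sequenced in 1 library each. Per the labels, the submitters' processing notes name CASAVA 1.8.2, Bowtie, MACS 1.4.2 and the build mm9. Per the file headers, the authors called peaks on reads of 50 bases with a p-value cutoff of 1e-05, local backgrounds over 1000 and 10000 bp and at most 1 read per position. The redundant share was 0.31 in the 3HA-Rfx6 library and 0.79 in the control, and the smaller dataset was scaled up. For each peak the authors deposited the count of reads, a fold enrichment (a ratio), a score (the p-value as minus 10 log10) and a false discovery rate in percent. Read counts are of the 3HA-Rfx6 library alone. The control enters through the peak calling, and so through the peaks listed and their folds, scores and false discovery rates. The effect of the low depth of the control on these was not tested.

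From the list, summits (start plus summit offset minus 1) were placed on GENCODE M1 genes, with a coding exon taken before an untranslated exon, a start (1 kb) and an intron. Motifs were searched on NCBIM37. RefSeq promoters of another build were not used. With 1 library per condition no test was run. Shares have Wilson intervals and ratios and densities exact Poisson intervals at 95%, which cover counting error only. The members and gene lists were chosen with earlier results of these data known. Genes with a coding summit, with a summit at a start or among the 10 with most summits are described with values, as are the 5 peaks with most reads and the 5 with the highest fold, and the others are named with their counts. Alternatives were a gene-only or 50 kb window, peaks with a fold of at least 10 or the top 50% of scores, the longest transcript, wider peak definitions, other neighbours (50 genes, or length or exon number alone), an X-box searched in relaxed form or in 100 bp. Runs of 10 triplets, and leaving out Col4a2 for the Gly-X-Y split and for the comparison with neighbours, were added after seeing the data. Python 3.11.15 with scipy 1.17.1, pandas 2.3.3, numpy 2.4.6 and matplotlib 3.10.9 was used, and the searches were tested on simulated data.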

Additional observations from a re-analysis of the deposited data

How the results depend on the processing

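Of 32 alternatives tried, 24 left the value within its interval or within 1.5 times the count, and 8 moved it. Peaks at collagen genes fell from 154 to 66 with a fold enrichment of at least 10 and to 89 in the 50% of peaks with the highest scores, since fewer peaks enter. Summits in coding exons numbered 25, 16 with a fold of at least 10, 42 when the 200 bp around the summit touched a coding exon and 61 when any base of the peak did. The coding share of summits inside was 29.6% with a fold of at least 10, against 11.6% over all genes then. Col4a2, on which the family was chosen, held 7 of the 16 coding summits at that fold. No share without Col4a2 is given for this setting. The X-box share was 45.5% with the relaxed form, against 6.49%. The ratio of coding summits to similar genes was 6.19 with neighbours by length alone, against 3.14, and the cause was not tested. It was 2.04 without Col4a2. The number of collagen genes with a peak ranged from 24 of 41 (fold of at least 10) to 35 (within 50 kb, or with the X-linked genes added to the 41). At a fold of at least 10, 33.5% of all autosomal protein-coding genes had a peak. No share over all genes is given for the 50 kb window or with the X chromosome. The share of coding summits in Gly-X-Y runs was 88.0% for runs of 10 triplets and 87.5% without Col4a2. No paired analysis was possible because each condition had 1 library. Peaks with under 24 reads are not in the list, so a gene without a summit may still hold weaker signal.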

Other observations

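Collagen genes outside the autosomal family held coding summits as well. On the X chromosome, Col4a6 had 2 summits, both in coding exons, with at most 110 reads, whereas Col4a5, which lies head to head with it, had none. Emid2, an autosomal gene with a collagen-like product that is also called Col26a1, had 10 summits in the gene or within 20 kb, 8 of them inside and 2 in coding exons, with at most 338 reads.

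Runs of at least 5 Gly-X-Y triplets also occur in 305 other autosomal genes. In these runs 4 summits were found, in 1110032F04Rik, Alg9, C1ql2 and C1qtnf5, of which C1ql2 and C1qtnf5 encode proteins with a collagen-like stalk. This gave 141 summits per Mb (exact Poisson interval 38.5 to 361) against 58.8 in the other coding sequence of these genes (42 to 80.1), so the intervals overlapped. With runs of at least 10 triplets, 49 genes remained, with 2 summits and 178 per Mb (21.5 to 641) against 66.3 (18.1 to 170). At this number of summits no difference was detectable outside the collagen genes.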
